A study of Oryzias latipes with 12 samples.

Results

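The comparison described here asks, gene by gene, whether the brains of pd1 knockout medaka (Oryzias latipes) and of wild-type medaka answered a change of day length to the same extent. All 12 of the 12 RNA-seq libraries of the study enter it, in 4 groups of 3. The groups are pd1 knockout fish 12 days after a move to long days (KO long days), pd1 knockout fish on short days just before that move (KO short days), wild-type fish 12 days after the move (WT long days) and wild-type fish on short days just before it (WT short days). Each library is poly(A)-selected RNA of a dissected block holding the ventral telencephalon, the hypothalamus and the pituitary, and all fish were sampled at 12:00. The gene called pd1 in the sample labels is called phod1 in the design text, and all KO libraries share its loss.

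For every gene, the response of a genotype is its mean log2(TPM + 1) on long days minus that on short days. TPM is a relative abundance that corrects for transcript length and sums to the same total in every library. The difference of responses is the KO response minus the WT response, so a positive value means that the knockout moved further up, or less far down, than wild type did. A gene was called when its adjusted p (limma, Benjamini-Hochberg over all tested genes) was under 0.05. Of 26663 genes in the table, 18218 had at least 1 TPM in at least 3 libraries and were tested. Short-day fish were always taken before long-day fish, so day length cannot be told apart from elapsed time or age within a genotype. The labels give no sex or age, no description of the knockout allele, and no word on whether each library is 1 fish, so the p-values measure only the spread between these samples. No gene in the table carries pd1 or phod1 as a symbol or synonym, so the loss of the targeted gene could not be checked in these data.

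Medaka breed under long days. In vertebrates of this kind, day length acts on the hypothalamus and on the pituitary, which makes follicle-stimulating hormone and luteinizing hormone. Gonadotropin-releasing hormone is among the brain signals that reach the pituitary. Each gonadotropin pairs a common alpha subunit, encoded by cga, with its own beta subunit, encoded by fshb or lhb. The gonads answer with sex steroids, which feed back on the brain, where aromatase (cyp19b) of radial glia turns androgens into oestrogens.

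The libraries were alike as a whole. Between 17244 and 17478 genes reached 1 TPM in a library, and Pearson correlations of log2(TPM + 1) over the tested genes lay between 0.971 and 0.98 within groups and between 0.957 and 0.979 between groups. The pituitary hormone pomc ranged widely, with 5991, 2576 and 2927 TPM in KO long days, 8537, 1602 and 2425 TPM in KO short days, 7002, 2689 and 5190 TPM in WT long days, and 4534, 5987 and 3048 TPM in WT short days. Its groups overlapped throughout. The hypothalamic peptide gene crh held between 88.9 and 128 TPM in all 12 libraries, while other peptide genes varied more. The gene oxt ran from 82.2 to 728 TPM, and hcrt from 6.63 to 15.96 TPM. Replicate 3 of WT short days stood apart in genes of the interferon response and in fshb, so each gene named below is also given, singly or as a member of a counted group, without that library. Read counts were not used here and the depth of each library is unknown.

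The test of the difference of responses called 1 gene, 0.00549% of those tested, with a positive difference; limma called 0 with a negative one, where 339 negative differences had an unadjusted p under 0.05. The called gene was LOC110015663, a protein-coding gene with no name in the reference. Its level was 11.8, 22.2 and 10.9 TPM in KO long days, 0.35, 0.78 and 0.39 TPM in KO short days, 0.29, 0.71 and 0.34 TPM in WT long days, and 0.16, 0.49 and 0.52 TPM in WT short days. All 3 KO long-day libraries stood above the other 9, which lay under 1 TPM and overlapped one another. The gene passed the filter of 1 TPM in 3 libraries only through KO long days, so that separation adds no support to the call. The ratio of group means was 29.5 in the knockout, for long over short days, and 1.15 in wild type. On the log2(TPM + 1) scale the KO response was 3.35 (SE 0.26) and the WT response 0.06 (SE 0.26), and their difference was 3.29 (SE 0.37, 95% interval 2.48 to 4.10, adjusted p = 0.0330).

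Without replicate 3 of WT short days, that difference was 3.22 with an adjusted p of 0.0440. Leaving out each library in turn kept it between 2.99 and 3.47, yet 5 of these 12 refits put the adjusted p above the threshold. These were the refits without replicate 1 (0.0714) or replicate 2 (0.168) of WT short days, and without replicate 13 (0.0962), replicate 14 (0.0861) or replicate 15 (0.173) of WT long days. The call was also lost with a pseudocount of 0.1 TPM, where the difference was 4.44 with an adjusted p of 0.128, and among genes with at least 5 TPM in at least 3 libraries, where the adjusted p was 0.125.

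LOC101164984, the next tested gene after LOC110015663 in the gene order of the reference, was picked out after its values were seen. It had 6.27, 7.78 and 4.24 TPM in KO long days, 0, 0.26 and 0.37 TPM in KO short days, 0, 0.53 and 0.63 TPM in WT long days, and 0, 0 and 1.23 TPM in WT short days. Its KO long-day libraries again stood above the other 9. Outside them only replicate 3 of WT short days reached 1 TPM, so this gene too passed the filter through KO long days. The difference of responses of LOC101164984 was 2.48 with an adjusted p of 0.182, so it did not pass. It was 2.09 without replicate 3 of WT short days.

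**Figure D1:**
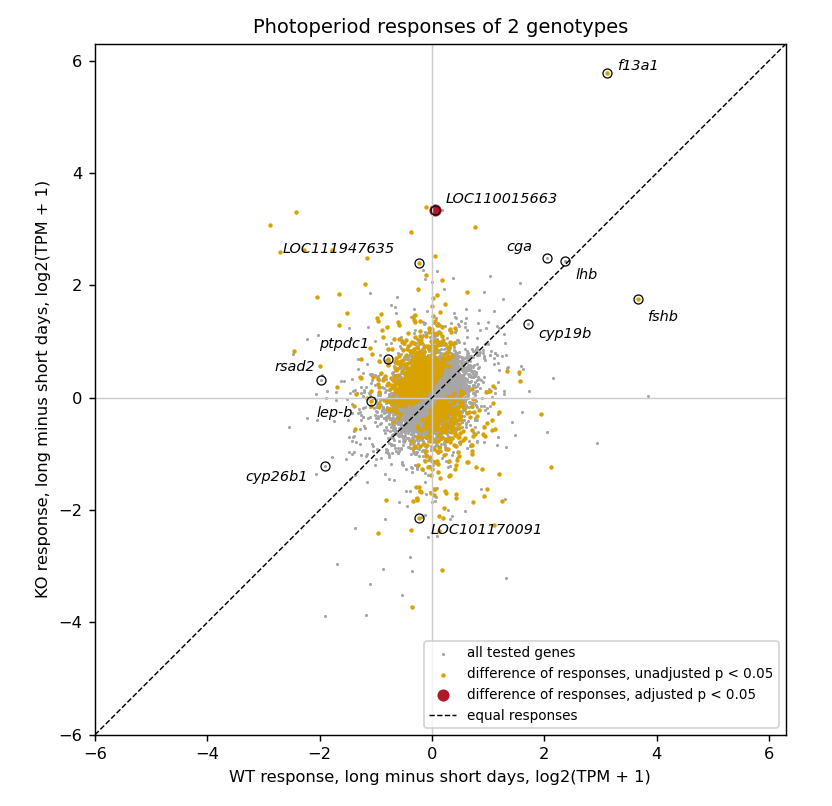
Response of each tested gene in the knockout (vertical axis) against wild type (horizontal axis), each as long minus short days on log2(TPM + 1), with the line of equal responses dashed. LOC110015663, the called gene in red, lies at a KO response of 3.35 and a WT response of 0.06; fshb lies below the line and f13a1 above it.

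Below the called gene, 1444 genes (7.93% of those tested) had an unadjusted p under 0.05 for the difference of responses, 1105 positive (6.07%) and 339 negative (1.86%). This imbalance moved with the scaling of the libraries. With median-ratio scaling in place of TPM alone, 1339 genes had such a p, 679 positive and 660 negative. The median difference over all tested genes was 0.08 with TPM and 0.00 with that scaling, and the share of positive values was 64.6% with TPM and 50.2% with scaling. The scaling centres every library on a common median, so balanced signs follow from its construction and do not tell which scaling is nearer the truth. The sizes below are therefore best read against a median of 0.08. In all, 532 genes (2.92%) had a difference of at least 1 in size.

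The other 3 genes without a symbol were named for the smallest p in their direction. LOC111947635 had 7.44, 3.11 and 4.35 TPM in KO long days and 0, 0.2 and 0.07 TPM in KO short days, against 0, 0 and 0 TPM in WT long days and 0.17, 0.18 and 0.19 TPM in WT short days. Only the KO long-day libraries exceeded 1 TPM, so the gene passed the filter through them alone. Its difference of responses was 2.63 (SE 0.35, adjusted p = 0.0887), and 2.62 without replicate 3 of WT short days. It did pass in 5 alternatives: with the filter at TPM above 0 (adjusted p = 0.0147), with no trend in the prior variance (0.0144), with array weights (0.0484), and without replicate 13 (0.0375) or replicate 14 (0.038) of KO long days. It did not pass in the others, and its adjusted p ran up to 0.626. With a pseudocount of 0.1 TPM the difference was 6.27, so its size depends on that setting.

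LOC101170091 lies next to LOC111947635 in the gene order of the reference and went the other way. It had 14.4, 19.2 and 22.2 TPM in KO long days, 86.0, 83.3 and 82.6 TPM in KO short days, 43.5, 75.2 and 38.0 TPM in WT long days, and 71.9, 45.5 and 61.3 TPM in WT short days. The KO long-day libraries were below all others and the KO short-day libraries above all others, while the WT libraries of both day lengths overlapped. The gene fell in the knockout by 2.14 on the log2 scale (adjusted p = 0.00186), and its difference of responses was -1.91 (SE 0.34, adjusted p = 0.143), or -1.94 without replicate 3 of WT short days. Whether reads of these adjoining genes can be told apart by the counting was not tested.

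LOC101168755 had 4.38, 4.51 and 4.43 TPM in KO long days, 12.2, 12.1 and 8.87 TPM in KO short days, 5.36, 6.09 and 5.74 TPM in WT long days, and 5.5, 6.08 and 5.68 TPM in WT short days. The KO short-day libraries were above all others and the KO long-day libraries slightly below all others. The difference of responses was -1.13 (SE 0.18, adjusted p = 0.113), and -1.12 without replicate 3 of WT short days. It passed with array weights (adjusted p = 0.0484) and without replicate 4 of KO short days (0.0328). Over all alternatives its adjusted p ran up to 0.615.

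**Figure D2:**
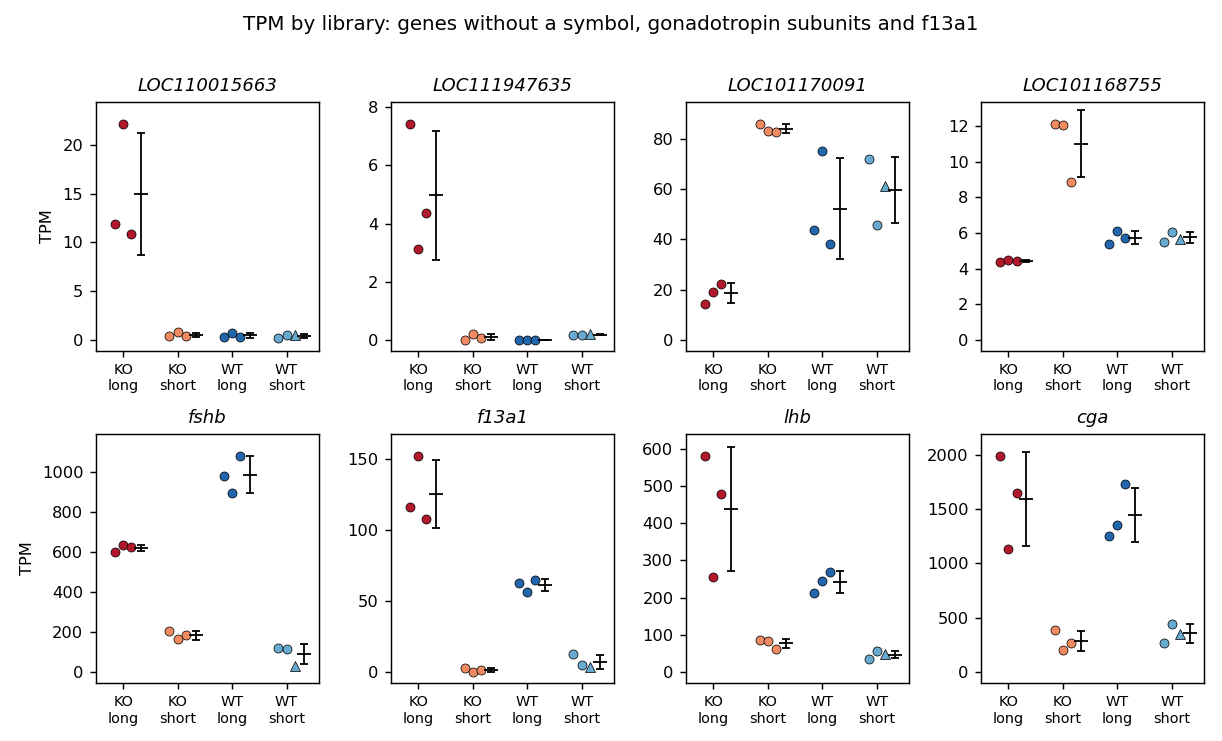
TPM in each library for 4 genes without a symbol, the 3 gonadotropin subunit genes and f13a1, with groups from left to right KO long days, KO short days, WT long days and WT short days. Points are libraries, the bar is the mean with its SD, and the triangle is replicate 3 of WT short days, which is the lowest library for fshb at 31.4 TPM.

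Among the gonadotropin genes, fshb, the beta subunit of follicle-stimulating hormone, rose on long days in both genotypes. It had 602, 635 and 625 TPM in KO long days and 206, 163 and 183 TPM in KO short days, against 983, 897 and 1083 TPM in WT long days and 122, 115 and 31.4 TPM in WT short days. The long-day libraries were lower in the knockout than in wild type and the short-day libraries higher, with no overlap between genotypes on either day length. Mean levels were 621 ± 16.9 TPM in KO long days, 184 ± 21.4 TPM in KO short days, 988 ± 93.0 TPM in WT long days and 89.6 ± 50.5 TPM in WT short days (SD, n = 3 each). The ratio of long-day to short-day means was 3.38 in the knockout and 11.0 in wild type.

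On the log2(TPM + 1) scale, the fshb response was 1.76 in the knockout (SE 0.38, adjusted p = 0.0464) and 3.67 in wild type (SE 0.38, adjusted p = 0.00497). Their difference was -1.91 (SE 0.54, 95% interval -3.10 to -0.73), with an unadjusted p of 0.00433 and an adjusted p of 0.413. The library with 31.4 TPM, replicate 3 of WT short days, carried much of that size and of its spread. With it left out, the WT ratio was 8.32, the difference of responses was -1.29, and the adjusted p was 0.0177, which passes. Leaving out any other library gave an adjusted p above the threshold and kept the sign, the difference being -2.25 at its largest size.

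For lhb, the beta subunit of luteinizing hormone, the 2 genotypes gave nearly equal responses. Its level was 582, 255 and 479 TPM in KO long days, 85.9, 82.1 and 62.5 TPM in KO short days, 212, 244 and 269 TPM in WT long days, and 35.8, 56.3 and 48.0 TPM in WT short days. Long-day and short-day libraries did not overlap within either genotype. It rose by 2.43 in the knockout (adjusted p = 0.00171) and by 2.36 in wild type (adjusted p = 0.00588). The difference was 0.07 with a 95% interval of -0.75 to 0.88, and 0.03 without replicate 3 of WT short days.

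The alpha subunit gene cga rose by 2.49 in the knockout (adjusted p = 0.00171) and by 2.04 in wild type (adjusted p = 0.0103). It had 1991, 1130 and 1648 TPM in KO long days, 387, 202 and 266 TPM in KO short days, 1256, 1351 and 1732 TPM in WT long days, and 270, 440 and 353 TPM in WT short days. The 2 genotypes overlapped on each day length. Its difference of responses was 0.45 (95% interval -0.37 to 1.26), or 0.43 without replicate 3 of WT short days.

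The preoptic form of gonadotropin-releasing hormone is encoded by gnrh1. That gene had 38.1, 33.3 and 39.3 TPM in KO long days, 31.9, 31.2 and 35.9 TPM in KO short days, 44.1, 47.2 and 38.9 TPM in WT long days, and 35.9, 25.2 and 19.3 TPM in WT short days. The day lengths overlapped in the knockout and did not overlap in wild type. Its difference of responses was -0.56 (SE 0.25, unadjusted p = 0.0431, adjusted p = 0.606). It was -0.35 (unadjusted p = 0.0978) without replicate 3 of WT short days, its lowest library. The terminal nerve form gnrh3 had -0.06 and the tachykinin gene tac3 had 0.06, and both changed sign without that library, to 0.26 and -0.27.

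Brain aromatase, cyp19b, rose on long days in both genotypes. It averaged 689 ± 61.2 TPM in KO long days, 278 ± 49.2 TPM in KO short days, 778 ± 115 TPM in WT long days and 240 ± 49.4 TPM in WT short days (SD, n = 3 each). The difference of responses was -0.38 (95% interval -0.90 to 0.13, adjusted p = 0.711), and -0.42 without replicate 3 of WT short days. Of the sex steroid receptors, oestrogen receptor esr1 had a difference of -0.03 at 5.16 to 7.89 TPM over the 12 libraries, or -0.08 without that library. Progesterone receptor pgr had -0.48 (adjusted p = 0.704), or -0.59 without it, with 4.02, 3.97 and 4.32 TPM in KO long days, 4.32, 2.52 and 2.62 TPM in KO short days, 4.21, 5.3 and 4.26 TPM in WT long days, and 1.45, 2.56 and 2.73 TPM in WT short days.

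Over the whole list of the gonadotropic axis, 15 of 34 entries matched a tested gene, 6 with a positive and 9 with a negative difference of responses, around a median of -0.05. None passed the test of the difference, while 4 were called for day length in the knockout and 4 in wild type. Over all tested genes, 1.76% were called in the knockout and 0.192% in wild type. The list was chosen with earlier results of these data known. Its members fshb and gnrh1 had a difference with an unadjusted p under 0.05, as did 7.93% of all tested genes. The block of tissue includes the pituitary, and in bulk RNA fewer cells of a type and less RNA per cell cannot be told apart. Summed TPM of the list was 3011 to 4180 in KO long days, 1043 to 1364 in KO short days, 3544 to 4382 in WT long days and 998.7 to 1181 in WT short days. Among the pituitary hormones and lineage factors, 11 members were tested, 8 positive and 3 negative, around a median of 0.07. Of these, pou1f1, the lineage factor of growth hormone, prolactin and thyrotropin cells, had the largest positive value at 0.50 (unadjusted p = 0.0390, adjusted p = 0.590), and 0.58 without replicate 3 of WT short days. The part that unequal amounts of pituitary in the libraries have in these values was not tested, and the amount itself was not measured. In KO short days pomc ran from 1602 to 8537 TPM, cga from 202 to 387 TPM and fshb from 163 to 206 TPM. The libraries of cga ranked as those of pomc did in both KO groups, and ranked otherwise in both WT groups.

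The gene with the largest photoperiod response in the knockout among those named was f13a1, which encodes the A subunit of coagulation factor XIII, a transglutaminase that cross-links fibrin. It had 116, 152 and 108 TPM in KO long days and 2.98, 0.17 and 1.52 TPM in KO short days, against 62.4, 56.5 and 64.4 TPM in WT long days and 12.8, 5.15 and 3.37 TPM in WT short days. The KO long-day libraries were above all others and the KO short-day libraries below all others. It rose by 5.78 in the knockout (adjusted p = 0.000370) and by 3.11 in wild type (adjusted p = 0.0169). The difference was 2.67 (SE 0.62, 95% interval 1.32 to 4.02), with an unadjusted p of 0.00110 and an adjusted p of 0.298. It was 3.03 without replicate 3 of WT short days, and it stayed between 2.19 and 3.07 whichever library was left out. With a pseudocount of 0.1 TPM it was 3.50. The WT rise of f13a1 was not called without replicate 3 of WT short days (adjusted p = 0.0533).

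The 10 genes with a symbol and the smallest p among positive differences are named although they did not pass. In 7 of them the responses of the genotypes had opposite signs, and in the same 7 the day lengths overlapped in neither genotype, a pattern in opposite directions seen in 120 of all tested genes (0.659%). The 10 were chosen by their difference, which favours such a pattern, so the count is a description. Adjusted p-values of the 10 ran between 0.123 and 0.191, and sizes between 0.49 and 1.48. All 10 kept their sign and an unadjusted p under 0.05 without replicate 3 of WT short days.

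The largest of the 10 was ptpdc1, a member of the protein tyrosine phosphatase family. It had 45.2, 49.5 and 45.5 TPM in KO long days, 28.6, 28.7 and 28.4 TPM in KO short days, 13.1, 15.9 and 15.1 TPM in WT long days, and 32.66, 33.03 and 16.25 TPM in WT short days. KO long-day libraries were above all others and WT long-day libraries below all others, with replicate 3 of WT short days close above them. The KO response of ptpdc1 was 0.69, the WT response -0.79 and the difference 1.48 (SE 0.29, adjusted p = 0.182). The difference was 1.80 and the adjusted p 0.000393, which passes, without replicate 3 of WT short days.

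The Rab GTPase-activating protein gene tbc1d13 had 59.0, 72.7 and 54.1 TPM in KO long days, 37.1, 38.1 and 39.6 TPM in KO short days, 57.3, 41.6 and 34.6 TPM in WT long days, and 63.8, 60.0 and 63.7 TPM in WT short days. The KO long-day libraries overlapped those of both WT groups, and the day lengths were apart within each genotype. Its difference was 1.18 (SE 0.22, adjusted p = 0.165), and 1.16 without replicate 3 of WT short days. For the histone deacetylase gene hdac11, levels were 42.7, 50.8 and 43.7 TPM in KO long days, 33.4, 32.8 and 30.2 TPM in KO short days, 26.1, 27.0 and 26.4 TPM in WT long days, and 35.6, 32.3 and 28.6 TPM in WT short days. Its KO long-day libraries were above all others and its WT long-day libraries below all others. The difference for hdac11 was 0.76 (adjusted p = 0.132), and 0.84 without that library, and the gene rose in the knockout by 0.49 (adjusted p = 0.0268).

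Of gpat3, which encodes an acyltransferase of the first step of glycerolipid synthesis, the libraries held 42.3, 41.6 and 42.0 TPM in KO long days, 35.3, 39.9 and 39.4 TPM in KO short days, 32.8, 34.3 and 31.5 TPM in WT long days, and 50.7, 44.8 and 44.95 TPM in WT short days. It fell in wild type by 0.50 (adjusted p = 0.0220), while the KO response was 0.13 (adjusted p = 0.407). The difference between the genotypes was 0.63 (SE 0.10, adjusted p = 0.123) and passed with array weights (adjusted p = 0.0486), as did that of tbc1d13 (0.0484). The gpat3 difference was 0.66 without replicate 3 of WT short days, where its WT fall was not called (adjusted p = 0.0533). The other 3 genes with opposite responses had smaller differences. The gene snapc2, for a subunit of a complex that acts on the promoters of small nuclear RNA genes, had 0.61. The gene ero1b, for an oxidase of disulfide bond formation in the endoplasmic reticulum, had 0.49, and smad7, for an inhibitory Smad of the TGF-beta pathway, had 0.49. These were 0.58, 0.46 and 0.48 without replicate 3 of WT short days.

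In the other 3 of the 10, the knockout responded while the WT libraries of the day lengths overlapped. The acid-sensing ion channel gene asic4 had 45.8, 61.9 and 55.1 TPM in KO long days, 28.0, 25.9 and 25.4 TPM in KO short days, 26.7, 33.2 and 29.1 TPM in WT long days, and 29.8, 26.1 and 27.9 TPM in WT short days. It rose in the knockout by 1.00 (adjusted p = 0.00186) and had a WT response of 0.08, a difference of 0.92 (SE 0.16, adjusted p = 0.132). Without replicate 3 of WT short days the size was the same, 0.92, with an SE of 0.18 and an adjusted p of 0.2955. Its neighbour gmppa, which encodes a regulator of GDP-mannose synthesis, rose in the knockout by 0.68 (adjusted p = 0.00419), with a difference of 0.63 (0.63 without that library). The pigment cell receptor gene gpr143 had 7.34, 7.7 and 6.3 TPM in KO long days, 2.94, 1.94 and 3.14 TPM in KO short days, 7.22, 7.58 and 7.2 TPM in WT long days, and 6.3, 6.29 and 8.16 TPM in WT short days. The KO short-day libraries of gpr143 were below all others, and the other 3 groups overlapped. The gene rose in the knockout by 1.16 (adjusted p = 0.00598), and its difference was 1.07 (SE 0.22, adjusted p = 0.191), or 0.96 without that library.

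**Figure D3:**
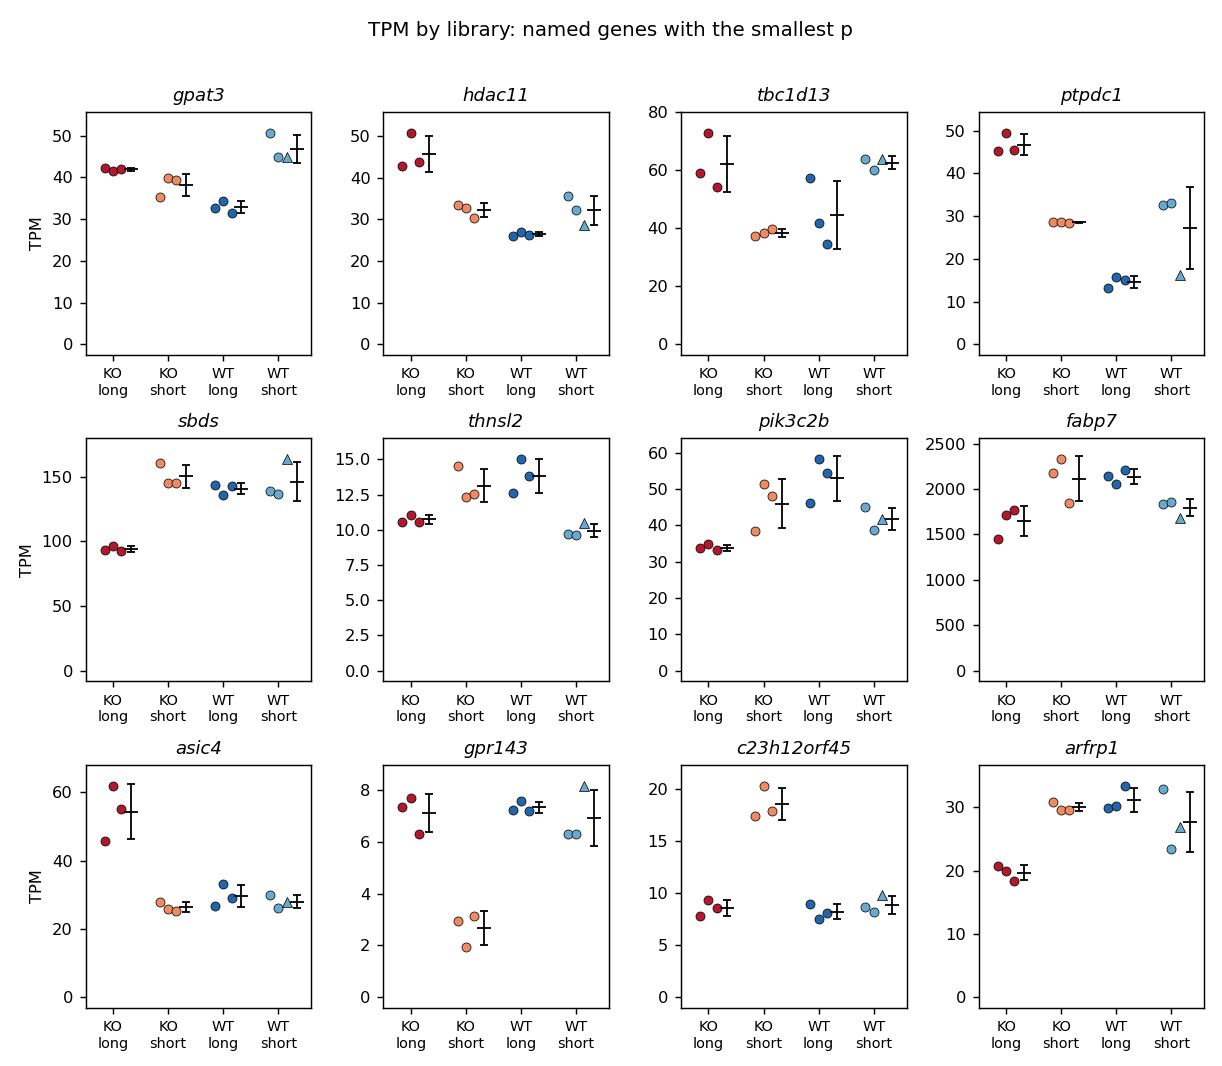
TPM in each library for 12 named genes, in the group order KO long days, KO short days, WT long days and WT short days, with the mean and SD beside the points and a triangle for replicate 3 of WT short days. In sbds the 3 KO long-day libraries, at 92.4 to 96.8 TPM, lie below the other 9; in gpr143 and c23h12orf45 it is the KO short-day libraries that stand apart.

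The smallest p among negative differences named another 10 genes with a symbol, with adjusted p-values between 0.130 and 0.310 and sizes of 0.61 or more. In 8 of them the responses had opposite signs, again a description of genes chosen by their difference. All 10 kept their sign and an unadjusted p under 0.05 without replicate 3 of WT short days. The first was sbds, whose protein releases a factor that holds large ribosomal subunits inactive. It had 93.4, 96.8 and 92.4 TPM in KO long days, 161, 145 and 145 TPM in KO short days, 143, 136 and 143 TPM in WT long days, and 139, 136 and 164 TPM in WT short days. The KO long-day libraries lay below all others, and the WT libraries of the day lengths overlapped. It fell in the knockout by 0.67 (adjusted p = 0.00186), the WT response was -0.05, and the difference was -0.62 (SE 0.10, adjusted p = 0.130). With replicate 3 of WT short days, the highest library, left out, the difference was -0.70 and passed (adjusted p = 0.0440).

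The open reading frame c23h12orf45 had 7.83, 9.34 and 8.52 TPM in KO long days, 17.4, 20.3 and 17.9 TPM in KO short days, 8.97, 7.52 and 8.12 TPM in WT long days, and 8.63, 8.17 and 9.77 TPM in WT short days. Only the KO short-day libraries stood apart. The difference of responses was -0.93 (SE 0.16, adjusted p = 0.130), or -0.998 without replicate 3 of WT short days. The Golgi GTPase gene arfrp1 showed its low values in KO long days, at 20.8, 19.9 and 18.4 TPM, against 30.9, 29.7 and 29.7 TPM in KO short days, 29.8, 30.3 and 33.4 TPM in WT long days and 32.9, 23.5 and 26.9 TPM in WT short days. It fell in the knockout by 0.59 (adjusted p = 0.0257), with a difference of -0.76 (adjusted p = 0.182), or -0.75 without that library.

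The RNase H2 subunit gene rnaseh2b rose in wild type by 0.53 (adjusted p = 0.0373), with 32.3, 32.9 and 33.5 TPM in WT long days above the other 9 libraries, which lay between 21.2 and 28.9 TPM. The difference for rnaseh2b was -0.61 (adjusted p = 0.182), or -0.60 without replicate 3 of WT short days. Its WT rise was not called without that library (adjusted p = 0.118).

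The radial glial fatty acid-binding protein gene fabp7, the most abundant of the 20, had 1455, 1714 and 1770 TPM in KO long days, 2172, 2328 and 1847 TPM in KO short days, 2139, 2057 and 2215 TPM in WT long days, and 1841, 1858 and 1684 TPM in WT short days. Long days were below short days in every knockout library and above them in every WT library. The difference was -0.61 (SE 0.14, adjusted p = 0.272), or -0.57 without replicate 3 of WT short days. The remaining 4 were thnsl2, a threonine synthase-like gene, with -0.70; pik3c2b, a class II phosphoinositide 3-kinase, with -0.75; mrps16, a protein of the small mitochondrial ribosomal subunit, with -0.72; and jdp2, a bZIP repressor that pairs with AP-1 proteins, with -0.96. Without replicate 3 of WT short days these were -0.73, -0.75, -0.70 and -0.996. Mean TPM in KO long days, KO short days, WT long days and WT short days was 10.7, 13.1, 13.8 and 9.94 for thnsl2. In the same order it was 50.1, 63.7, 58.5 and 45.1 for mrps16, and 4.17, 6.78, 6.31 and 4.6 for jdp2. In pik3c2b the KO long-day libraries, at 33.7, 34.8 and 33.1 TPM, were below all others.

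**Figure D4:**
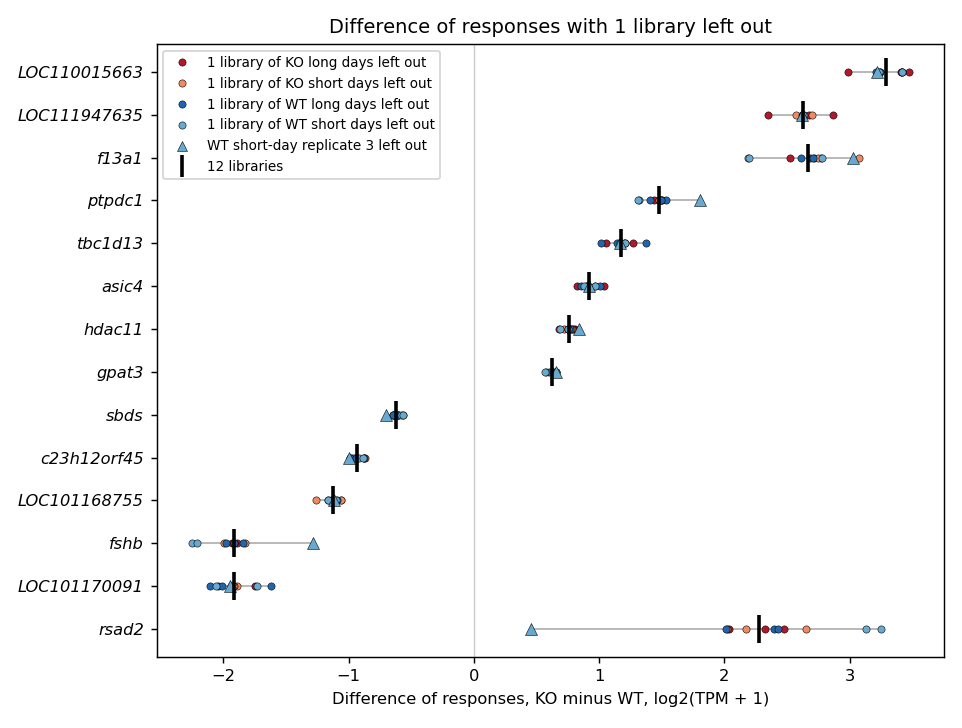
Difference of responses, KO minus WT, on log2(TPM + 1) for 14 named genes, with all 12 libraries (black bar) and with 1 library left out (points coloured by the group it came from; triangle for replicate 3 of WT short days). The triangle moves fshb to -1.29 and rsad2 to 0.46, while LOC110015663 stays between 2.99 and 3.47.

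The 2 genotypes also differed in how many genes were called for day length, although such counts do not test the difference between them. In the knockout 321 genes (1.76%) were called, 202 higher (1.11%) and 119 lower (0.653%) on long days. In wild type 35 genes (0.192%) were called, 12 higher (0.0659%) and 23 lower (0.126%). At an unadjusted p under 0.05, the knockout had 2898 genes (15.9%), 1709 higher (9.38%) and 1189 lower (6.53%), and wild type had 2117 (11.6%), 533 higher (2.93%) and 1584 lower (8.69%). These splits by direction are given for TPM alone and depend on the scaling. The median response over all tested genes was 0.03 in the knockout and -0.05 in wild type with TPM. With median-ratio scaling these medians were 0.0007 and 0.0014. The day-length contrasts of the 2 genotypes share no library, but a single fit over all groups gives both the same estimate of the spread. The counts are therefore not independent. The counts lean on the setting and on single libraries. With array weights, which give less weight to libraries that deviate more, 462 genes were called in the knockout and 292 in wild type. In the knockout 81 genes were called without replicate 14 of KO long days, 86 without replicate 13 of KO long days, 111, 122 and 191 without replicates 4, 3 and 1 of KO short days, and 197 to 212 without replicate 15 of WT long days or any replicate of WT short days. In wild type 10 were called without replicate 13 or replicate 15 of WT long days, and 11, 13 and 23 without replicates 2, 1 and 3 of WT short days, and 23 without replicate 13 of KO long days. Of these calls 20 were made in both genotypes, all with the same sign, 301 in the knockout alone and 15 in wild type alone. The difference of responses had an unadjusted p under 0.05 in 189 of the 321, in 13 of the 35 and in 4 of the 20, where the share over all tested genes is 7.93%. Since a gene called in a genotype was chosen on one side of the difference, those shares are a description and carry no test.

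Most genes called in the knockout leaned the same way in wild type at a smaller size. Each set below was chosen for a large response in 1 genotype, so a smaller median in the other follows at least in part from that choice. Of the 202 that rose in the knockout, 161 (79.7%) had a positive WT response, where 38.8% of all tested genes did; 55.8% of all had a positive KO response. Their median response was 0.56 in the knockout and 0.14 in wild type. Of the 119 that fell in the knockout, 110 (92.4%) had a negative WT response, and the median was -0.53 in the knockout and -0.25 in wild type. Of the 35 genes called in wild type, 32 had the same sign in the knockout, where 58.8% of all tested genes had the same sign in both genotypes. The median of the 12 that rose in wild type was 1.00 in the knockout and 1.11 in wild type, and that of the 23 that fell was -0.36 in the knockout and -0.68 in wild type. The 3 with opposite signs, picked out after their values were seen, were gpat3, rnaseh2b and LOC101165212. The last averaged 2.40 TPM in KO long days, 0.93 TPM in KO short days, 0 TPM in WT long days and 4.76 TPM in WT short days. Its difference was 3.29, or 3.21 without replicate 3 of WT short days.

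Of the 20 genes called in both genotypes, those named by rule beside lhb, cga, cyp19b and f13a1 were fech, flvcr1, dnajc15, fbxo25, gltp and yme1l1. The ferrochelatase gene fech, whose enzyme completes haem by adding iron, fell by 0.81 in the knockout and by 0.76 in wild type, with a difference of -0.05 (95% interval -0.32 to 0.22, and -0.05 without replicate 3 of WT short days). It averaged 44.9 ± 5.20 TPM in KO long days, 79.4 ± 4.25 TPM in KO short days, 47.3 ± 3.63 TPM in WT long days and 80.9 ± 1.87 TPM in WT short days (SD, n = 3 each). The haem exporter gene flvcr1 fell by 0.47 in the knockout and by 0.69 in wild type, with a difference of 0.22 (95% interval -0.02 to 0.45), or 0.26 without that library. The glycolipid transfer protein gene gltp was low. Its mean TPM was 4.03 in KO long days, 1.11 in KO short days, 3.04 in WT long days and 0.783 in WT short days. It rose by 1.24 in the knockout and by 1.19 in wild type, with a difference of 0.05, or -0.12 with a pseudocount of 0.1 TPM. The difference was -0.10 without replicate 3 of WT short days. For dnajc15, fbxo25 and yme1l1 the differences were 0.15, 0.13 and 0.10, and 0.12, 0.09 and 0.10 without that library. The WT responses of fbxo25 and yme1l1 were not called without it (adjusted p = 0.0636 and 0.0791). The 4 genes called in both genotypes whose difference had an unadjusted p under 0.05 were fshb, f13a1, LOC101164398 and LOC101175077. Without replicate 3 of WT short days, only 2 of them, fshb and f13a1, still had such a p.

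Counting over all tested genes which group stood apart gave the knockout short-day libraries most often. All 3 KO short-day libraries were beyond the other 9 in 712 genes (3.91%), 263 above (1.44%) and 449 below (2.46%). KO long-day libraries were beyond the other 9 in 520 genes (2.85%), 349 above (1.92%) and 171 below (0.939%). WT long-day libraries were so in 375 genes (2.06%), 100 above (0.549%) and 275 below (1.51%), and WT short-day libraries in 453 genes (2.49%), 353 above (1.94%) and 100 below (0.549%). Day lengths did not overlap in 3969 genes (21.8%) in the knockout and in 3106 genes (17%) in wild type. In 783 genes (4.3%) they did not overlap in both genotypes in the same direction, and in 120 (0.659%) in opposite directions. All of these counts rest on TPM and were not repeated with median-ratio scaling.

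Among the 1444 genes with an unadjusted p under 0.05, responses of opposite sign were the more common form. The larger response was in the knockout with the sign opposite to wild type in 675 (46.7%), and in wild type with the sign opposite to the knockout in 444 (30.7%). The knockout had the larger response with the same sign in 240 (16.6%), and wild type in 85 (5.89%). These genes were chosen by their difference, so the shares are a description, and they rest on TPM without median-ratio scaling. Of the 1444, 991 also had such a p without replicate 3 of WT short days, and all 1444 kept their sign.

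Known gene groups were next described by list, in the order of function; none of their members passed the test of the difference, and 64.6% of all tested genes had a positive difference around a median of 0.08. Proteins of the cytosolic ribosome mostly had a negative difference. Of 66 tested members, 63 had a negative and 3 a positive difference, around a median of -0.18, from a median response of -0.05 in the knockout and 0.13 in wild type. The members with an unadjusted p under 0.05 were rps26 (-0.34), rpl37 (-0.38), rpl7 (-0.29) and rpl5 (-0.23). Without replicate 3 of WT short days they had -0.30, -0.35, -0.27 and -0.18, and of them only rps26 kept such a p. Summed TPM of the list was 109400 to 121300 in KO long days, 117700 to 120400 in KO short days, 108800 to 137800 in WT long days and 104500 to 115800 in WT short days. The ranges of the groups overlapped, except that every KO short-day library was above every WT short-day library. The list median was -0.26 with median-ratio scaling and -0.15 without replicate 3 of WT short days. Replicate 13 of WT long days held the highest summed TPM, 137800, and without it the median was -0.08, rpl7 had -0.17 and rps26 had -0.24.

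The genes of cholesterol synthesis also leaned negative, 15 of 19 tested, around a median of -0.31, or -0.18 without replicate 3 of WT short days and likewise without replicate 3 of KO short days. Their median response was -0.29 in the knockout and 0.01 in wild type. Summed TPM was 370.7 to 425.4 in KO long days, 417.5 to 581.9 in KO short days, 472.2 to 538.9 in WT long days and 441.1 to 564.8 in WT short days, so that the KO long-day libraries were below all WT libraries. The transcription factor gene srebf1, which drives lipid synthesis, had the smallest p of the list, at -0.59 (unadjusted p = 0.0120, adjusted p = 0.487), or -0.54 without that library. It had 19.6, 18.5 and 21.0 TPM in KO long days, 26.9, 32.5 and 26.8 TPM in KO short days, 23.1, 30.5 and 21.9 TPM in WT long days, and 28.2, 21.2 and 21.9 TPM in WT short days. Of 25 tested genes of sphingolipid synthesis and transfer, 18 were positive around a median of 0.07. Among them sptlc3, a subunit of the enzyme that starts sphingolipid synthesis, rose in the knockout by 1.25 (adjusted p = 0.0367) and had a difference of 1.08 (adjusted p = 0.479), or 1.22 without that library.

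For retinoic acid, a regulator made from vitamin A and degraded by the CYP26 enzymes, 8 of 9 tested genes had a positive difference, around a median of 0.30 with or without replicate 3 of WT short days. The median was 0.09 without replicate 13 of KO long days. The enzyme gene cyp26a1 had 6.15, 5.28 and 5.51 TPM in KO long days, 3.75, 2.97 and 0.66 TPM in KO short days, 1.18, 1.61 and 1.55 TPM in WT long days, and 2.61, 1.36 and 2.23 TPM in WT short days. Its KO long-day libraries were above all others, and its difference was 1.38 (unadjusted p = 0.0120, adjusted p = 0.487), or 1.33 without that library and 0.92 without replicate 4 of KO short days. The related gene cyp26b1 fell in both genotypes, by 1.22 in the knockout (adjusted p = 0.0357) and by 1.91 in wild type (adjusted p = 0.0103). Its mean TPM was 1.96 in KO long days, 5.81 in KO short days, 1.44 in WT long days and 8.23 in WT short days. The difference was 0.69 (95% interval -0.07 to 1.44), or 0.60 without replicate 3 of WT short days. The retinol carrier gene rbp4, at 905 TPM or more in every library, had a difference of 0.33 (unadjusted p = 0.0309, adjusted p = 0.570), or 0.40 without that library and 0.21 without replicate 14 of WT long days.

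Genes of the interferon response turned on 1 library. Of 9 tested members, 8 had a positive difference around a median of 0.58, and without replicate 3 of WT short days the median was 0.01, with 5 of 9 positive. It was 1.01 without replicate 1 of WT short days. Their summed TPM was 78.1 to 84.9 in KO long days, 72.7 to 81.0 in KO short days, 75.7 to 83.1 in WT long days and 76.8 to 569.1 in WT short days. The antiviral gene rsad2 had 6.3, 3.91 and 2.98 TPM in KO long days, 2.64, 1.93 and 6.03 TPM in KO short days, 5.89, 3.06 and 6.18 TPM in WT long days, and 6.05, 4.97 and 287 TPM in WT short days. The difference for rsad2 was 2.28 (95% interval -1.21 to 5.77) with all libraries and 0.46 without that one.

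**Figure D5:**
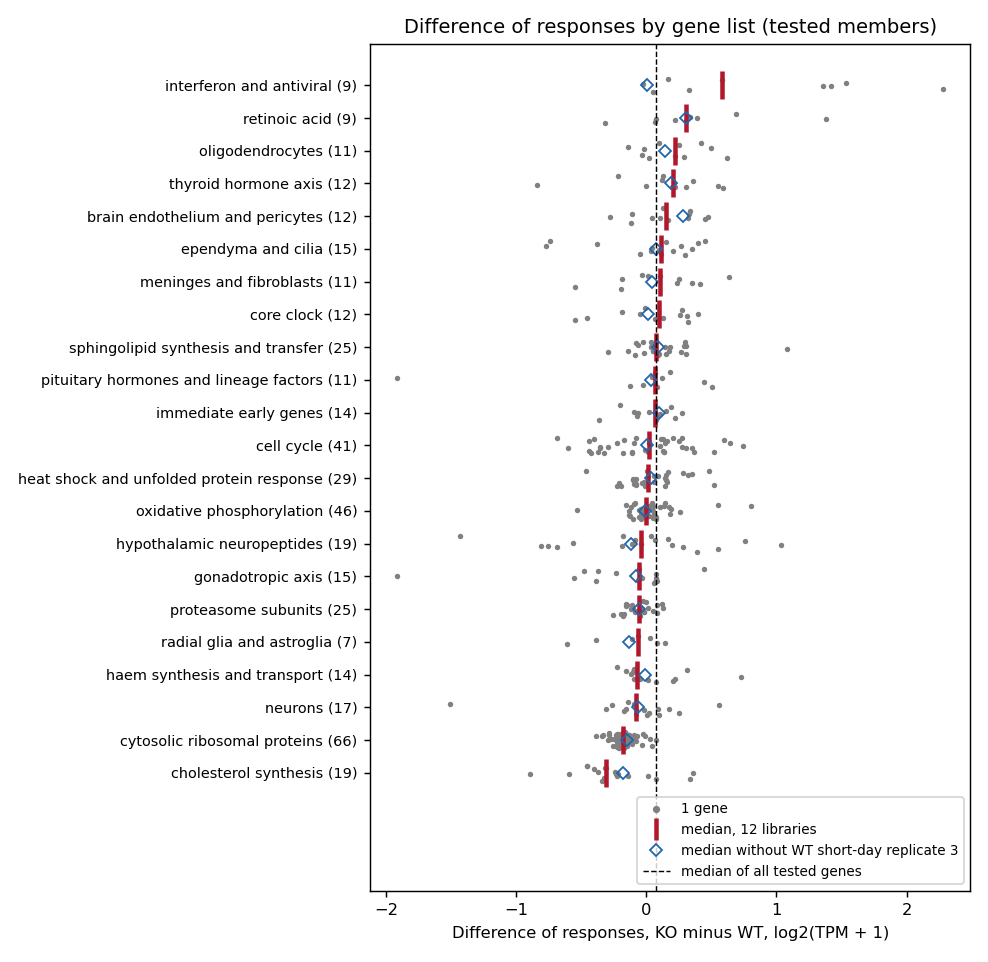
Difference of responses, KO minus WT, on log2(TPM + 1) for the tested members of each gene list with at least 5 of them (number in brackets), with the list median over 12 libraries (red bar) and without replicate 3 of WT short days (diamond), and the median of all tested genes, 0.08 (dashed line). Cytosolic ribosomal proteins and cholesterol synthesis lie left of that line, and the interferon median moves to 0.01 without that library.

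In the thyroid hormone axis, which relays day length in the pituitary and hypothalamus of many vertebrates, 9 of 12 tested genes were positive around a median of 0.20. The activating deiodinase dio2 had a difference of 0.13 (95% interval -1.10 to 1.36), with 7.67, 8.3 and 8.03 TPM in KO long days, 5.41, 1.64 and 8.39 TPM in KO short days, 7.46, 10.4 and 7.34 TPM in WT long days, and 6.66, 6.73 and 2.89 TPM in WT short days. It was 0.46 without replicate 3 of WT short days. The inactivating deiodinase dio3 had 0.36 (adjusted p = 0.694), the receptors thra and thrb had 0.22 and 0.12, and the transporter gene slc16a10 had 0.59 (unadjusted p = 0.0393, adjusted p = 0.593). Without that library these were 0.39, 0.09, 0.08 and 0.64. The value of slc16a10 was 0.37 without replicate 13 of KO long days. The receptor gene tshr was under the filter and was not tested.

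Core clock genes, sampled at a single hour, gave 7 positive and 5 negative differences of 12, around a median of 0.10, or 0.01 without replicate 3 of WT short days. The repressor gene nfil3 had a difference of -0.55 (adjusted p = 0.490), with KO short-day libraries at 18.26 to 20.01 TPM above the other 9, and -0.47 without that library. For per1 and per2 the differences were 0.06 and 0.27, and -0.0006 and 0.27 without it. Of 14 immediate early genes, which mark recent neuronal activity, 9 were positive around a median of 0.07 and none had an unadjusted p under 0.05. Among them npas4 had -0.20 (95% interval -1.03 to 0.63), or -0.31 without that library. Its mean TPM was 44.7 in KO long days, 90.4 in KO short days, 25.7 in WT long days and 44.8 in WT short days. Its KO short-day libraries were above all others and its WT long-day libraries below all others. The falls of npas4, 0.98 in the knockout and 0.77 in wild type, were not called (adjusted p = 0.103 and 0.292). The symbols cry1, cry2, fos and esr2 matched no single gene in the table.

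Among 19 tested neuropeptide genes, 9 differences were positive and 10 negative. Of these lep-b, a leptin gene, fell in wild type by 1.09 (adjusted p = 0.0451), with 2.46, 1.36 and 2.2 TPM in KO long days, 1.92, 2.4 and 1.95 TPM in KO short days, 0.81, 1.11 and 1.13 TPM in WT long days, and 3.41, 2.84 and 3.6 TPM in WT short days. All KO libraries lay between the WT libraries of the 2 day lengths. The difference was 1.03 (SE 0.26, unadjusted p = 0.00195, adjusted p = 0.335), or 0.98 without replicate 3 of WT short days. The WT fall of lep-b was not called without that library (adjusted p = 0.149). The orexin gene hcrt had 0.55 (adjusted p = 0.567), crh 0.28 and oxt, for the fish form of oxytocin, 0.07. Without that library these were 0.44, 0.30 and -0.12. The difference for pomc was 0.07 with a 95% interval of -1.69 to 1.83, or 0.33 without it. Mean TPM of oxt was 188 in KO long days, 232 in KO short days, 409 in WT long days and 572 in WT short days.

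For protein quality control and energy, of 29 tested heat shock and unfolded protein genes, 16 were positive. The J-domain gene dnajc25 fell in wild type by 0.71 (adjusted p = 0.00782), with a KO response of -0.19 and a difference of 0.52 (adjusted p = 0.300). The chaperone genes dnajb1 and hspe1 had 0.48 and -0.46, and the heat shock factor hsf1 had 0.32. Without replicate 3 of WT short days the 4 values were 0.49, 0.40, -0.50 and 0.29. Of 46 tested genes of oxidative phosphorylation, 22 were positive around a median of 0.00. The complex I genes ndufv3 and ndufs1 had 0.80 and 0.55, and ndufc1 had -0.53, or 0.80, 0.61 and -0.55 without that library. Of 25 proteasome subunit genes 19 were negative, around a median of -0.06, and none had an unadjusted p under 0.05. In haem synthesis and transport, uros rose in the knockout by 0.64 (adjusted p = 0.0482) and had a difference of 0.73 (adjusted p = 0.400), or 0.64 without that library, in a list of 6 positive and 8 negative members.

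Lists of cell types held no member called for the difference either. Differences were positive in 7 of 17 neuronal genes (median -0.08), 3 of 7 radial glial genes (-0.06), 8 of 11 oligodendrocyte genes (0.22), 9 of 12 endothelial and pericyte genes (0.15, or 0.28 without replicate 3 of WT short days), 11 of 15 ependymal genes (0.11), 7 of 11 meningeal genes (0.11), 2 of 4 microglial genes (-0.01) and 1 of 2 red blood cell genes (0.08). The cell type medians moved with single libraries, that of oligodendrocytes to 0.03 without replicate 13 of WT long days and that of the meninges to -0.03 without replicate 4 of KO short days. All 3 tested opsin genes had a negative difference (median -0.27). The tight junction gene cldn5 of brain endothelium had 0.48 (unadjusted p = 0.0340) and pcolce2, a collagen processing enhancer, had -0.55 (unadjusted p = 0.0251), or 0.55 and -0.62 without replicate 3 of WT short days. The pcolce2 gene fell in the knockout by 0.89 (adjusted p = 0.0167). Of 41 tested cell cycle genes 22 were positive, with kif11, ttk and mcm3 at 0.60, 0.74 and 0.35, or 0.69, 0.69 and 0.40 without that library. In KO long days, KO short days, WT long days and WT short days, mean TPM of kif11 was 4.46, 2.75, 3.23 and 3.44. That of ttk was 3.63, 1.81, 3.57 and 3.63. Summed TPM of the 17 neuronal genes was 5054 to 5499 in KO long days, 5457 to 5854 in KO short days, 5006 to 5433 in WT long days and 4782 to 5361 in WT short days. The part that cell type shares have in the differences above was not tested.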

How the data were processed

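Paired-end, strand-specific poly(A) libraries were made by the authors, per the labels' protocols. The deposited values are TPM per gene, made by the authors, who name STAR 2.7.9a and RSEM 1.3.1 in the submitters' processing notes; the role of each tool is not stated, and the genome build is not given in the sources used here. TPM sums to a fixed total in each library, so a rise of abundant genes lowers the others.

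Gene IDs of all 26663 rows matched RefSeq (ASM223467v1), used for symbols and gene order only. Genes with at least 1 TPM in at least 3 libraries (18218) were tested as log2(TPM + 1) with limma 3.58.1 (R 4.3.3), 4 group means and a trend in the prior variance (8 residual degrees of freedom), with Benjamini-Hochberg adjustment over all of them. On data simulated for the difference of responses over 18218 genes, 79 of 100 changes of size 1 and 97 of 100 of size 2 were called, with 9 false calls. With nothing changed there were 0 calls. The changed genes were drawn only from the more abundant ones, with independent normal noise and a shift in KO long days alone. These shares therefore do not hold for low genes such as LOC110015663 and LOC111947635. All changes were planted in the same simulated set, and many calls ease the Benjamini-Hochberg threshold for each gene. The data gave 1 call, so the shares do not carry over to the abundant genes of these data either.

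Genes were named by rule: per direction, up to 10 called genes with a symbol, filled up with the smallest p; the 2 genes without a symbol of smallest p; up to 4 members of each of 25 lists with an unadjusted p under 0.05; a set of genes named whatever their result; and up to 10 genes called in both genotypes. This gave 79 genes, 2 of which are not reported here; the counts include them. The comparison, lists and rules were chosen with earlier results of these data known. Replicate numbers were not taken to pair the samples. Deviations of same-numbered KO and WT libraries correlated at 0.0817 and 0.0881 on short days and at -0.0478 and -0.00492 on long days. Such low values cannot exclude a weak effect shared by same-numbered libraries. Alternatives were 8 settings and leaving out each of 12 libraries.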

Additional observations from a re-analysis of the deposited data

Results flagged for a closer look

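LOC110015663 differed between the genotypes in its response to day length by 3.29 on the log2(TPM + 1) scale, by the test of that difference itself across all genes (limma, adjusted p = 0.0330). Its KO response was 3.35 and its WT response 0.06. All 3 KO long-day libraries stood above the other 9, but the gene passed the filter only through them. Over the alternatives its adjusted p ran between 0.0144 and 0.229.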

How the results depend on the processing

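For the difference of responses, 1 gene was called, 1 positive and 0 negative. With a pseudocount of 0.1 TPM, or among genes with at least 5 TPM in at least 3 libraries, limma gave 0 calls (0 positive), while 1419 and 1191 genes had an unadjusted p under 0.05. The filter at TPM above 0 gave 6, of them 4 positive and 2 negative, no trend in the prior variance gave 5, of them 4 positive and 1 negative, and array weights gave 9, of them 8 positive and 1 negative. Median-ratio scaling and leaving out the 20 most abundant genes each gave 1. Leaving out 1 library gave 0 to 6 calls, 0 to 5 positive and 0 to 3 negative. Without replicate 3 of WT short days there were 4 (ptpdc1, fshb, sbds and LOC110015663), 6, 2 and 5 without replicates 1, 3 and 4 of KO short days, and 6, 2 and 3 without replicates 13, 14 and 16 of KO long days. Without replicate 1 or 2 of WT short days, or any replicate of WT long days, limma gave 0, while 1231 to 1980 genes had an unadjusted p under 0.05. A fit with the replicate number as a block gave 0 calls (0 positive), at a smallest adjusted p of 0.0939 and 2 residual degrees of freedom; 1253 genes had an unadjusted p under 0.05 there. The numbers were not taken to pair the samples in the main fit. In the knockout, 321 calls for day length became 186 with no trend and 81 to 320 with 1 library left out, lowest without replicate 14 of KO long days. In wild type, 35 became 292 with array weights and 10 to 37 with 1 library left out, lowest without replicate 13 or replicate 15 of WT long days. LOC110015663 kept its positive sign in all of these fits. That adds no support, since only its KO long-day libraries reached 1 TPM. The causes were not tested. TPM holds no depth, so counting error of low genes, such as LOC110015663 outside KO long days, is not in these values.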

Other observations

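Genes with a low p for the difference of responses often lay close together in the gene order of the reference, a pattern noticed in the data. Of 66 tested genes with an unadjusted p under 0.001, 16 (24.2%) had another such gene within 3 tested genes on either side, where 368 of all 18218 tested genes (2.02%) had one. For an unadjusted p under 0.05, a neighbour with such a p was found for 651 of 1444 genes (45.1%) and for 36.8% of all tested genes. Among the genes named in the results, hdac11 and ptpdc1 lay within 3 tested genes of each other, gmppa was next to asic4, thnsl2 next to tbc1d13, and LOC111947635 next to LOC101170091.

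Several of the largest differences came from genes that were high in some libraries of a group and at or near 0 in others. Those given here were picked out after their values were seen, and they are not the largest. Differences of 5.96 and 5.73 (adjusted p = 0.406 and 0.400) were found in genes with 0 TPM in replicate 16 of KO long days. The other KO long-day libraries of those genes held 24.7 to 41.7 TPM. The lncRNA gene LOC110015793, which lies near tbc1d13, had 12.4, 25.9 and 0 TPM in KO long days, 0, 0 and 0.5 TPM in KO short days, 14.96, 0 and 0 TPM in WT long days, and 10.0, 14.1 and 9.97 TPM in WT short days. Its difference of responses was 4.91 (adjusted p = 0.493), or 4.99 without replicate 3 of WT short days. LOC111949021 had 12.4, 16.6 and 30.7 TPM in KO long days, 32.8, 0 and 0 TPM in KO short days, 0, 0 and 0 TPM in WT long days, and 13.9, 14.7 and 0.18 TPM in WT short days. Its difference was 5.30 (adjusted p = 0.492), or 6.53 without that library.

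The lncRNA gene LOC105354343 was more even, with 7.3, 9.96 and 7.68 TPM in KO long days, 2.26, 0 and 0 TPM in KO short days, 1.38, 0 and 1.33 TPM in WT long days, and 3.43, 9.52 and 3.84 TPM in WT short days. The groups of each genotype did not overlap between day lengths, in opposite directions. Its difference was 4.42 (SE 0.70, adjusted p = 0.113), or 4.59 without replicate 3 of WT short days. The kisspeptin gene kiss-1, whose spelling the lists missed, had 1.17, 1.25 and 2.08 TPM in KO long days, 3.74, 3.64 and 6.1 TPM in KO short days, 1.94, 1.4 and 1.73 TPM in WT long days, and 8.42, 0.14 and 0.08 TPM in WT short days. Its difference was -1.37 (adjusted p = 0.724), or -0.84 without that library.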
